A study of Mus musculus with 8 samples.

Results

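Genes that encode 10 transcription factors of naive, memory and stem-like CD8+ T cells were followed in bulk RNA-seq libraries of mouse splenic CD8+ T cells. They are *Tcf7*, *Lef1*, *Bach2*, *Id3*, *Foxo1*, *Foxp1*, *Klf2*, *Myb*, *Bcl6* and *Satb1*. They were picked out by gene symbol, and all 10 were found among the 22520 genes and assembled transcripts of the table. The control group had 4 libraries treated with DMSO, the solvent, and the other group had 4 libraries treated with 40 µM DADA (diisopropylamine dichloroacetate), an inhibitor of the kinases that inactivate pyruvate dehydrogenase. In both groups, CD8+ T cells of wild-type mice had been purified from spleen by magnetic negative selection and kept under anti-CD3, anti-CD28 and IL-2 until day 6, with DADA or DMSO added from day 3. The culture models persistent stimulation with antibodies in place of antigen, the genotype field of the labels reads only control and model and names no allele, and the number of mice behind each library is not given in the sources used here. The methods list male C57BL/6J mice, 6 to 8 weeks of age, among several strains and do not say which strain gave the cells of these libraries. The comparison asks how these factors differ between persistently stimulated cells with and without DADA.

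As background, TCF1 (the product of *Tcf7*) and LEF1 are HMG-box proteins that keep naive and memory programs open and mark the progenitor pool of exhausted CD8+ T cells. FOXO1, KLF2 and FOXP1 hold resting T cells in quiescence and direct lymphoid homing, while BACH2, BCL6 and MYB restrain effector differentiation. ID3 blocks E proteins and is paired in T cells with ID2, its counterpart in effector cells, and SATB1 organizes chromatin at T cell genes.

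The values are FPKM (mapped fragments relative to transcript length and library size), so levels can be set side by side between genes, and each is a share of its library. The libraries held an estimated 13670000 to 16410000 mapped fragments with DMSO and 15090000 to 18500000 with DADA. The 8 markers of CD8 T cells were all abundant, with a summed level of 1108 to 1144 FPKM under DMSO and 1333 to 1370 FPKM under DADA. Of these 8, 7 were called higher and 1 lower with DADA (limma on log2(FPKM + 1), adjusted p under 0.05). Among all genes tested, 30.9% were called higher and 35.3% lower. All 7 myeloid, both NK and all 4 erythroid markers stayed below 1 FPKM in every library, with the NK sum at 0 to 0.0959 FPKM under DMSO and 0.144 to 0.336 FPKM under DADA. The 2 regulatory T cell markers, of which *Foxp3* was below 1 FPKM, summed to 8.13 to 9.86 FPKM under DMSO and 9.82 to 11.5 FPKM under DADA. Of the 6 B cell markers, 4 were below 1 FPKM in every library, with *Pax5* at 0, and the sum was 2.78 to 3.76 FPKM under DMSO and 3.23 to 4.40 FPKM under DADA. Most of this sum was *Cd79b*, at 2.42 to 3.47 FPKM under DMSO and 2.18 to 2.90 FPKM under DADA. *Ebf1* was low but higher with DADA without overlap, at 0.183 to 0.313 FPKM under DMSO and 0.866 to 1.42 FPKM under DADA. Of the 3 CD4 T cell markers, 2 were below 1 FPKM in every library and their sum, almost all *Zbtb7b*, was 16.2 to 17.3 FPKM under DMSO and 15.1 to 15.6 FPKM under DADA. The part of these shifts in the values below was not tested.

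Of the 10 factors, 9 passed the filter (1 FPKM or more in 4 or more of the 8 libraries). Of these, 8 rose with DADA and 1, *Id3*, fell (limma on log2(FPKM + 1), adjusted p under 0.05). The 4 libraries of each group did not overlap for any of the 9. DADA changed much of the transcriptome, so these counts stand beside a high background. Of the 10666 genes tested, 66.2% were called, 30.9% as higher and 35.3% as lower, and 60.6% had groups that did not overlap, 28.4% with DADA above and 32.2% with DADA below. The median log2 fold change was 0.44 over the 9 factors and -0.020 over all genes tested. *Klf2* passed the filter mainly through its DADA libraries, so its place in this count is not independent of its rise. The level of *Bcl6* lay below the filter in every library. The log2 fold changes ran from -1.03 for *Id3* to 1.13 for *Klf2*. In bulk libraries, a change in the share of cells that express a factor and a change in the transcript per cell cannot be told apart.

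**Figure D1:**
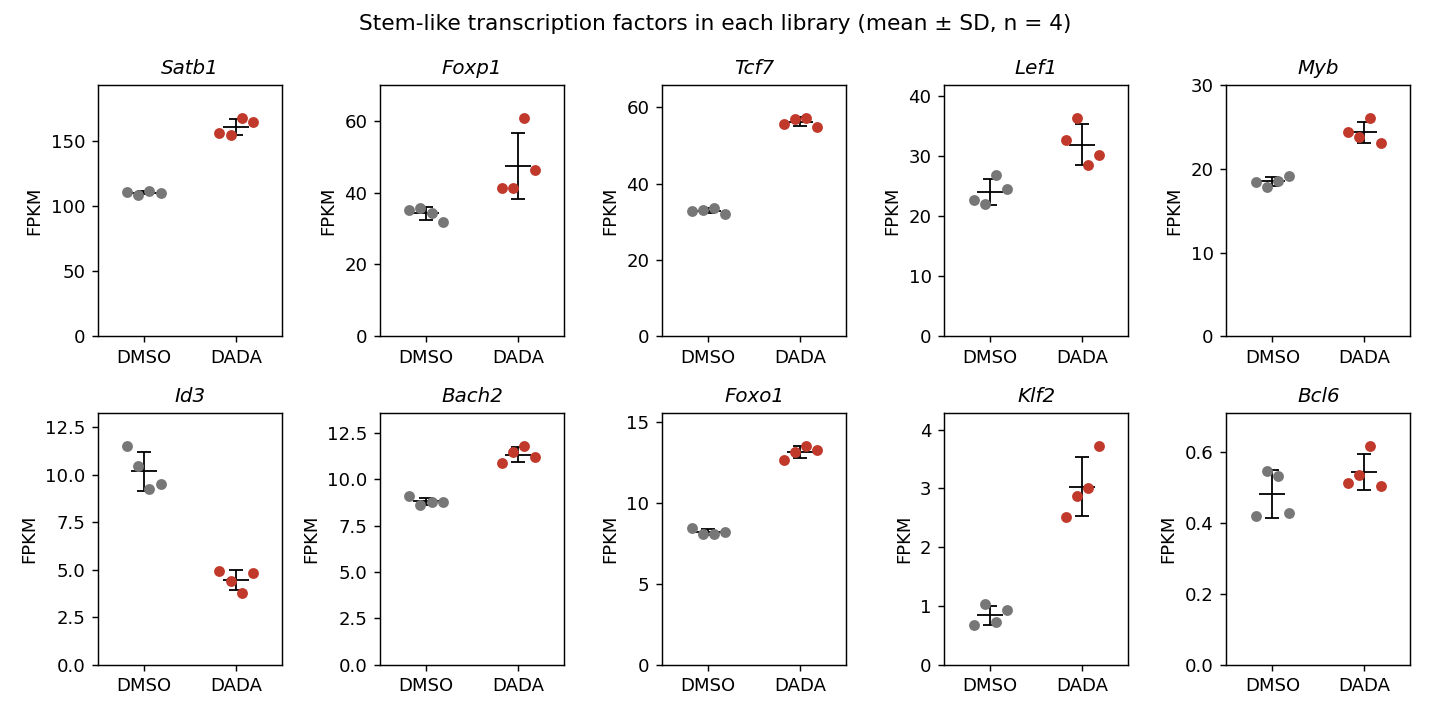
FPKM of each factor (y axis, from 0) in the 4 DMSO (grey) and 4 DADA (red) libraries, with the mean and SD of each group in black. The groups are apart for every gene but *Bcl6*, *Id3* is the gene that is lower with DADA, and 1 DADA library of *Foxp1* lies at 60.8 FPKM above the others.

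*Tcf7* (ENSMUSG00000000782) was read at 32.9, 33.0, 33.7 and 32.2 FPKM in DMSO 1 to 4 and at 55.6, 57.0, 57.3 and 54.8 FPKM in DADA 1 to 4. The libraries of a group were close together, with a coefficient of variation of 1.92% and 2.09%, and the lowest DADA library lay far above the highest DMSO library. The ratio of the means was 1.71 and the log2 fold change 0.75 (SE 0.0254 by limma, adjusted p = 3.75e-09; exact permutation test, p = 0.0286). This p is the smallest that 4 against 4 libraries allow. As background, *Tcf7* makes long and short protein forms, of which the short ones lack the part that binds β-catenin, and a value per gene does not separate them.

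*Lef1* (ENSMUSG00000027985), the partner of *Tcf7* in naive T cells, measured 22.8, 21.98, 26.8 and 24.5 FPKM under DMSO and measured 32.7, 36.4, 28.6 and 30.2 FPKM under DADA. Its groups were narrowly apart, at 28.6 against 26.8 FPKM, and its libraries varied more than those of *Tcf7*, by 8.92% with DMSO and 10.7% with DADA. The log2 fold change was 0.40 (SE 0.0786 by limma, adjusted p = 0.00133). *Tcf7* exceeded *Lef1* in all 8 libraries, and its lead widened with DADA. The log2 ratio of *Tcf7* to *Lef1* was 0.44 ± 0.11 (SD, n = 4) with DMSO and 0.80 ± 0.15 (SD, n = 4) with DADA, a difference of 0.36 (exact permutation test, p = 0.0286, adjusted p = 0.0343 over 6 ratios). The other 2 genes of the family, *Tcf7l1* and *Tcf7l2*, did not pass 0.4045 FPKM in any library. *Tcf7* thus took 55.55% to 59.8% of the summed FPKM of the family with DMSO and 60.75% to 66.4% with DADA (exact permutation test, p = 0.0286, adjusted p = 0.0457 over 8 families). With *Tcf7l1* and *Tcf7l2* this low, the share restates the ratio of *Tcf7* to *Lef1* and is no separate support.

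Since TCF1 and LEF1 read the letters CTTTGA, the promoter windows of the 10 genes were searched for them. RefSeq windows of 300 bases (250 before and 50 after a transcript start, GRCm38.p6) were available for all 10 genes, 21 windows in all, and matches were counted on both strands. Of these, 4 windows held CTTTGA or its reverse complement, where 16.0% of all 32851 windows do. They belonged to *Lef1*, *Bach2*, *Foxp1* and *Bcl6*, so that a factor without a call is among them and *Tcf7* is not. KLF2 reads CACCC boxes, and CCACACCC on either strand was found in 1 window, that of the inner start of *Tcf7*, where 3.56% of all windows have it. The stretches around these matches are shown from 5′ to 3′ on the strand of the gene, with the matches in capitals, and each of them lies within its gene and outside of annotated exons in GENCODE M21. On that annotation, each match shown lies upstream of an inner start of its gene, for *Lef1* as for *Tcf7*. The *Tcf7* stretch also lies within *A630014C17Rik* on the other strand, and the *Foxp1* stretch within *Gm20696* on the same strand, so that reads of *Foxp1* and *Gm20696* may not be separable. The stretch of *Klf2*, the gene with the largest ratio, is shown for comparison and held none of the 6 motifs searched. It lies upstream of the gene, outside of any annotated gene.
*Lef1*, chr3:131156084-131156209 (+): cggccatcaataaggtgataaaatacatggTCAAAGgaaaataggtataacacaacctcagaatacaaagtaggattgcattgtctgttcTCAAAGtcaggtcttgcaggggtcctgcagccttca
*Bach2*, chr4:32417312-32417377 (+): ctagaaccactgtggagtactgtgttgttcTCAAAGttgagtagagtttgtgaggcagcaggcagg
*Foxp1*, chr6:99266684-99266749 (-): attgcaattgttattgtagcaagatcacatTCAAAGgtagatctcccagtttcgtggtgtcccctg
*Bcl6*, chr16:23981292-23981357 (-): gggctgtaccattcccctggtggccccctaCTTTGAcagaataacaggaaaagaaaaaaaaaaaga
*Tcf7*, chr11:52282627-52282694 (-): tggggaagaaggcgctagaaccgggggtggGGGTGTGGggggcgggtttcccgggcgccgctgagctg
*Klf2*, chr8:72318912-72319031 (+): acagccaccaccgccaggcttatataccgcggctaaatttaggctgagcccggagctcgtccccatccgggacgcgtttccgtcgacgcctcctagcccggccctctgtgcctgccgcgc

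The other 4 motifs searched were the forkhead letters GTAAACA, the E-box CAGCTG, the interferon-stimulated response element and the AP-1 site TGANTCA. The forkhead letters were found in 2 of the 21 windows, of *Myb* and *Tcf7*, after the start in both, where 3.65% of all windows have them. The E-box was found in 3 of the 21 windows, of *Lef1*, *Satb1* and *Tcf7*, where 16.3% of all windows have it. Neither this element nor TGANTCA was found in the 21 windows, against 3.44% and 7.81% of all windows. These are matches of letters in short windows, and the libraries hold no measurement of binding.

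The factors of quiescence rose with DADA. *Foxo1* (ENSMUSG00000044167), which drives *Klf2* and *Il7r* in resting T cells, measured 8.41, 8.07, 8.05 and 8.21 FPKM under DMSO and measured 12.7, 13.1, 13.5 and 13.3 FPKM under DADA. Both groups were tight and far apart, with a ratio of the means of 1.61 and a log2 fold change of 0.62 (SE 0.0342 by limma, adjusted p = 1.30e-07). Its relative *Foxo3*, which has overlapping targets, also rose, from 7.34 ± 0.228 to 10.2 ± 0.473 FPKM (log2 fold change 0.42, limma, adjusted p = 1.13e-05). *Foxo4* measured 5.74 ± 0.455 FPKM under DMSO and 5.78 ± 0.2501 FPKM under DADA and was not called (limma, adjusted p = 0.873). The share of *Foxo1* in the summed FPKM of the 4 FOXO genes accordingly went from 37.9% to 39.5% with DMSO up to 43.9% to 46.2% with DADA (exact permutation test, p = 0.0286, adjusted p = 0.0457 over 8 families).

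*Klf2* (ENSMUSG00000055148), which maintains quiescence and the exit receptor gene *S1pr1*, is shut down by T cell receptor signals, and its level was low in these cells. It measured 0.682, 1.03, 0.727 and 0.932 FPKM under DMSO and measured 2.51, 2.88, 3.01 and 3.72 FPKM under DADA. With its length, these values correspond to an estimated 18.4 to 31.1 fragments per DMSO library and 81.3 to 127 per DADA library. The libraries of *Klf2* varied by 19.5% and 16.8%, but the groups did not overlap, and the ratio of the means, 3.60, was the largest of the 10 factors. The log2 fold change was 1.13 (SE 0.0988 by limma, adjusted p = 4.18e-06). Adding 0.1 in place of 1 before the log raised it to 1.735. *S1pr1* rose along with it, from 3.04 ± 0.153 to 5.67 ± 0.116 FPKM (log2 fold change 0.73, limma, adjusted p = 3.24e-07). The log2 ratio of *Klf2* to *S1pr1* was nevertheless higher with DADA, by 0.40, or 0.85 with a pseudocount of 0.1 (exact permutation test, p = 0.0286, adjusted p = 0.0343 over 6 ratios).

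*Foxp1* (ENSMUSG00000030067), a forkhead repressor that keeps naive T cells from dividing, measured 35.3, 35.8, 34.2 and 31.7 FPKM under DMSO and measured 41.3, 41.1, 60.8 and 46.2 FPKM under DADA. DADA 3 stood above the other DADA libraries, and the spread within DADA, 19.6%, was the widest of any factor above 1 FPKM in all libraries. The log2 fold change was 0.44 (SE 0.108 by limma, adjusted p = 0.00485), and without DADA 3 it was 0.32, with a mean of 42.9 ± 2.90 FPKM (SD, n = 3). *Foxp4*, its relative, was not called (14.9 ± 0.801 FPKM under DMSO, 14.8 ± 0.666 FPKM under DADA, limma, adjusted p = 0.860), and *Foxp2* and *Foxp3* did not pass 0.2684 FPKM. Whether *Foxo1* and *Foxp1* rose to a different extent was not resolved, with a difference between their log2 ratios of 0.18 (exact permutation test, p = 0.200, adjusted p = 0.200 over 6 ratios) and DADA 3 below every DMSO library. Without DADA 3, the difference was 0.29.

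**Figure D2:**
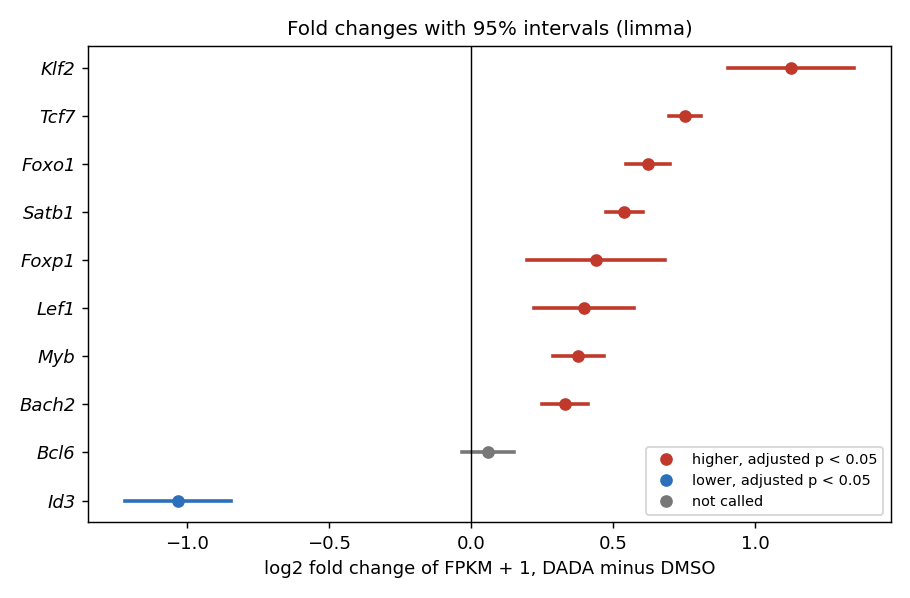
Log2 fold change of FPKM + 1, DADA minus DMSO (x axis), for each factor, with limma's 95% interval as a line. *Klf2* is highest at 1.13, *Id3* lies at -1.03, and the interval of *Bcl6*, fitted without the filter, spans 0.

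Among the restrainers of effector differentiation, *Bach2* and *Myb* rose modestly and *Bcl6* was not called. *Bach2* (ENSMUSG00000040270), which competes with AP-1 factors at effector enhancers, measured 9.07, 8.60, 8.77 and 8.76 FPKM under DMSO and measured 10.9, 11.5, 11.8 and 11.2 FPKM under DADA. Every DADA library was higher, by a log2 fold change of 0.33 (SE 0.0364 by limma, adjusted p = 2.19e-05), the smallest among the called factors. Its paralog *Bach1* also rose, from 2.43 ± 0.201 to 3.45 ± 0.263 FPKM (log2 fold change 0.37, limma, adjusted p = 4.76e-04). The share of *Bach2* in the pair was 78.4% ± 1.76 with DMSO and 76.7% ± 1.89 with DADA (SD, n = 4 each), a difference of -1.70 percentage points that did not exceed the spread (exact permutation test, p = 0.343). It was -0.839 without DMSO 1 and -0.817 without DADA 1.

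*Myb* (ENSMUSG00000019982), a regulator of the self-renewing fraction of exhausted cells, measured 18.5, 17.8, 18.6 and 19.2 FPKM under DMSO and measured 24.4, 23.8, 26.1 and 23.1 FPKM under DADA. The groups lay apart, with a log2 fold change of 0.38 (SE 0.0402 by limma, adjusted p = 1.78e-05). The other family members did not rise. *Mybl2*, a gene of dividing cells, fell from 17.5 ± 0.422 to 15.8 ± 0.610 FPKM (log2 fold change -0.14, limma, adjusted p = 0.00529), and *Mybl1* measured 2.30 ± 0.349 and 1.97 ± 0.213 FPKM (limma, adjusted p = 0.164). *Myb* therefore changed from 46.4% to 49.8% of the summed FPKM of the 3 genes with DMSO to 56.65% to 59.15% with DADA (exact permutation test, p = 0.0286, adjusted p = 0.0457 over 8 families).

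*Bcl6* (ENSMUSG00000022508), a zinc finger repressor that opposes BLIMP-1, measured 0.421, 0.548, 0.533 and 0.428 FPKM under DMSO and measured 0.515, 0.537, 0.618 and 0.506 FPKM under DADA. The groups overlapped, and an estimated 24.2 to 38.9 fragments per library stood behind these values. In the fit without the filter, where 48.7% of 16167 genes were called, 24.8% as higher and 23.9% as lower, and 45.8% had groups that did not overlap, its log2 fold change was 0.059 with a 95% interval of -0.032 to 0.15 (limma, adjusted p = 0.265; exact permutation test, p = 0.257). The pseudocount of 1 compresses changes at the level of *Bcl6*, and with a pseudocount of 0.1 the value was 0.15 (limma, adjusted p = 0.389). Its relative *Bcl6b*, at 1.02 ± 0.0855 FPKM under DMSO and 1.13 ± 0.157 FPKM under DADA, was not called either (limma, adjusted p = 0.347).

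*Satb1* (ENSMUSG00000023927), the chromatin organizer, was the most abundant of the 10 factors in both groups. It measured 111, 108, 111 and 109.8 FPKM under DMSO and measured 156, 154, 168 and 164 FPKM under DADA. All DADA libraries were higher, with a ratio of the means of 1.46 and a log2 fold change of 0.54 (SE 0.0291 by limma, adjusted p = 1.17e-07).

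*Id3* (ENSMUSG00000007872) went against the other factors. It measured 11.5, 10.5, 9.27 and 9.53 FPKM under DMSO and measured 4.95, 4.38, 3.77 and 4.82 FPKM under DADA. No DADA library reached the DMSO libraries, and the mean with DADA was 0.44 of that with DMSO. The log2 fold change was -1.03 (SE 0.0834 by limma, adjusted p = 2.26e-06), at the 0.459 percentile of the signed fold changes of all genes tested. *Id2*, which takes the place of *Id3* in effector cells, went the other way. It measured 32.4, 29.9, 26.7 and 30.4 FPKM under DMSO and measured 68.8, 79.6, 90.6 and 68.7 FPKM under DADA (log2 fold change 1.33, limma, adjusted p = 5.57e-07). The log2 ratio of *Id3* to *Id2* went from -1.46 ± 0.08 with DMSO to -3.83 ± 0.33 with DADA (SD, n = 4 each), a difference of -2.36 (exact permutation test, p = 0.0286, adjusted p = 0.0343 over 6 ratios). *Id1* did not pass 0.3565 FPKM and *Id4* was listed at 0, so the share of *Id3* in the family fell from 23.7% to 26.05% with DMSO to 3.98% to 6.68% with DADA (exact permutation test, p = 0.0286, adjusted p = 0.0457 over 8 families). Since *Id3* was lower and *Id2* higher in every DADA library, the p of the ratio and of the share was fixed by those separations. Neither p adds support to them. Of the E proteins that ID2 and ID3 bind, *Tcf3* measured 44.0 ± 1.11 and 41.2 ± 1.02 FPKM (log2 fold change -0.092, limma, adjusted p = 0.0146) and *Tcf12* fell from 29.9 ± 0.950 to 24.5 ± 0.727 FPKM (log2 fold change -0.28, limma, adjusted p = 3.25e-05). *Tcf4*, also an E protein, was low but rose from 1.18 ± 0.367 to 2.69 ± 0.428 FPKM (log2 fold change 0.77, limma, adjusted p = 5.11e-04).

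**Figure D3:**
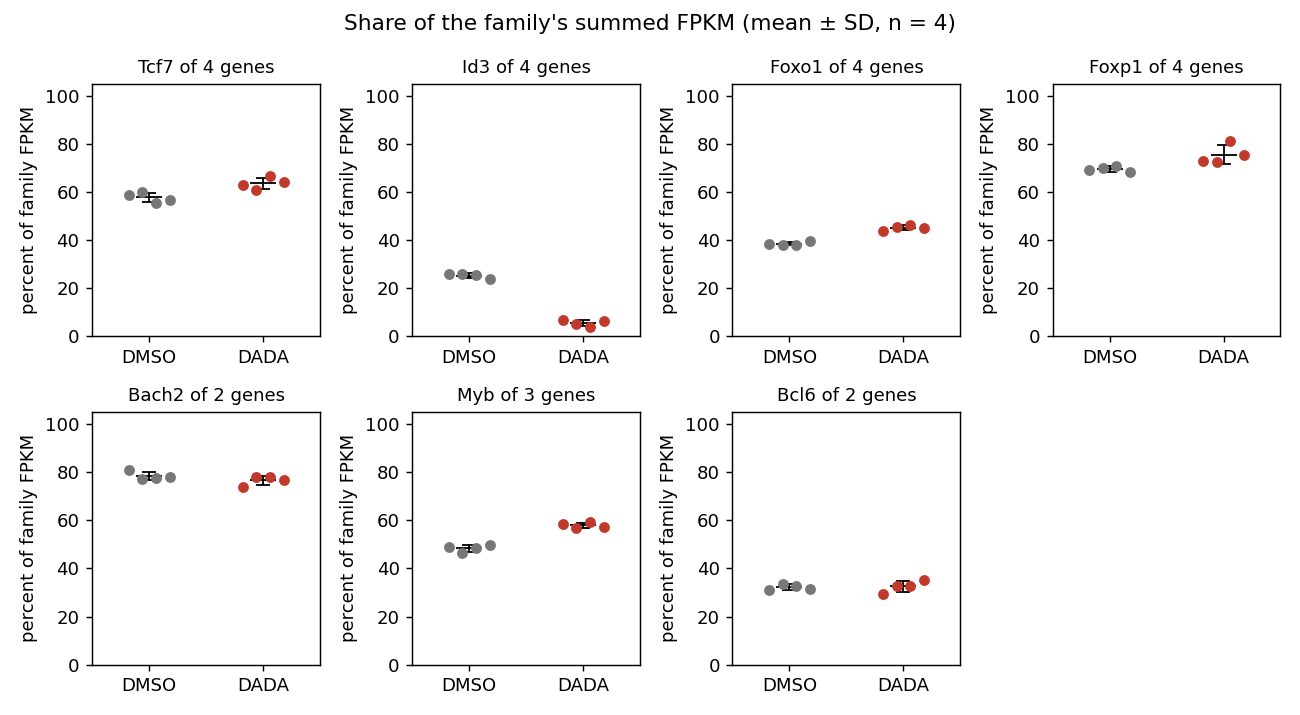
Share of each family's summed FPKM taken by the named factor (y axis, percent, from 0) in each library, with the mean and SD of each group. *Id3* drops from about 25.3% to 5.60%, *Tcf7*, *Foxo1*, *Foxp1* and *Myb* gain 5.84 to 9.48 percentage points, and *Bach2* and *Bcl6* overlap between the groups.

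The order of the levels changed in the middle. *Satb1* stood first and *Klf2* and *Bcl6* last in both groups. *Foxp1* and *Tcf7*, next to it with DMSO, exchanged places with DADA, but their libraries overlapped in both groups, so that their order is not resolved. *Foxo1* moved from rank 8 to rank 6 and passed *Bach2*, at rank 7 in both groups, with no overlap between these 2 genes in either group. *Id3* moved from rank 6 to rank 8, and with DADA its lowest library, 3.77 FPKM, was just above the highest of *Klf2*, 3.72 FPKM. All other neighbors in the order were apart in every library. Within DADA, DADA 3 had the highest value for 7 of the 10 factors (*Tcf7*, *Bach2*, *Foxo1*, *Foxp1*, *Myb*, *Bcl6* and *Satb1*) and the lowest for *Lef1* and *Id3*, and the same was found after rescaling to TPM. DADA 3 also had the lowest estimated depth of the DADA libraries, whose part in this was not tested. Without DADA 3, 8 factors were called as higher and 1 as lower, as with all libraries.

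Of 15 opposing regulators and known targets of BACH2 or BCL6, 14 were tested, of which 10 rose, 1 (*Gata3*) fell and 3 (*Zeb2*, *Hic1* and *Cd38*) were not called. *Prdm1*, which encodes BLIMP-1, a repressor of *Tcf7* and *Bcl6* in effector cells, measured 0.773, 0.682, 0.587 and 0.604 FPKM under DMSO and measured 7.65, 6.64, 8.585 and 7.34 FPKM under DADA. The groups were far apart (log2 fold change 2.36, SE 0.0743 by limma, adjusted p = 2.18e-09), although *Prdm1* passed the filter through its DADA libraries alone. *Bach2* stood above *Prdm1* in every library, but its log2 ratio to *Prdm1* shrank from 2.56 ± 0.06 to 0.53 ± 0.13 (SD, n = 4 each). The log2 ratio of *Bcl6* to *Prdm1* went from -0.16 ± 0.11 to -2.47 ± 0.11 (SD, n = 4 each). Both differences, -2.03 and -2.30, had the smallest p the design allows (exact permutation test, p = 0.0286, adjusted p = 0.0343 over 6 ratios). Their size depended on the pseudocount, since *Bcl6* in all libraries and *Prdm1* under DMSO lay below 1 FPKM. With a pseudocount of 0.1 the differences were -2.97 for *Bach2* to *Prdm1* and -3.18 for *Bcl6* to *Prdm1*.

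**Figure D4:**
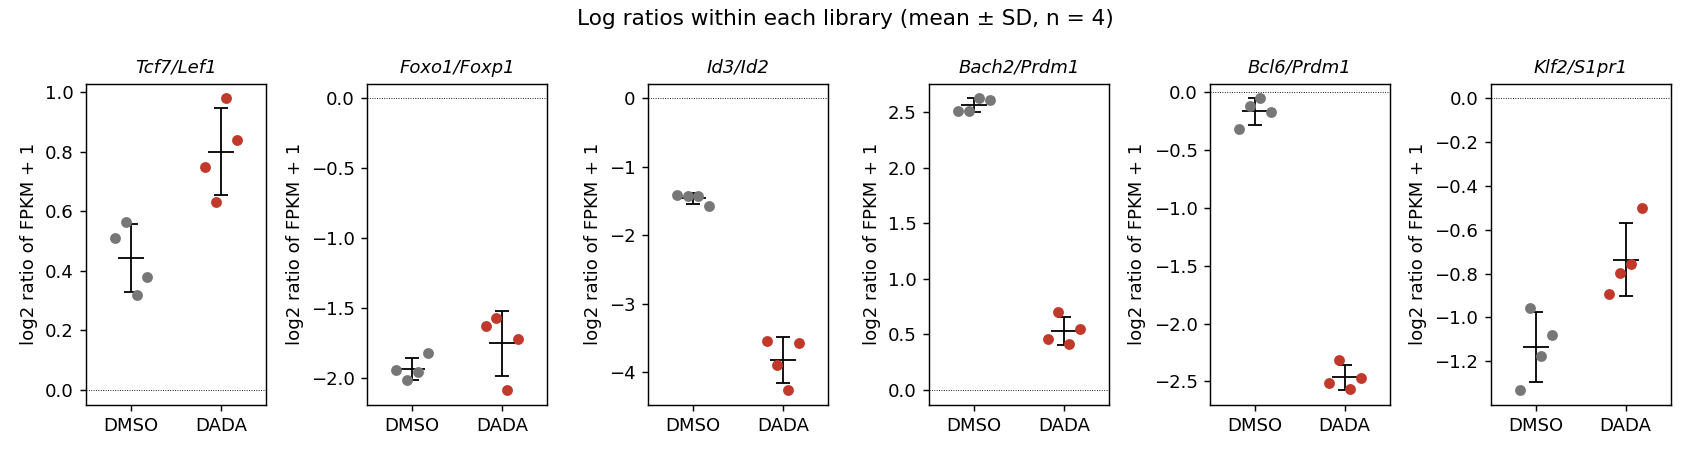
Log2 ratio of FPKM + 1 of the 2 genes named above each panel (y axis) in each library, with the mean and SD of each group. *Id3*/*Id2*, *Bach2*/*Prdm1* and *Bcl6*/*Prdm1* are lower by 2.03 to 2.36 with DADA, *Tcf7*/*Lef1* and *Klf2*/*S1pr1* are higher, and *Foxo1*/*Foxp1* overlaps.

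*Prdm1* and *Id2* belong to this list of opposing regulators, whose median log2 fold change was 0.49. *Runx3*, a factor of cytotoxic differentiation, rose from 24.4 ± 0.977 to 52.0 ± 1.06 FPKM (log2 fold change 1.07, limma, adjusted p = 1.72e-09). *Gata3* was the gene that fell, from 4.38 ± 0.0981 to 2.20 ± 0.221 FPKM (log2 fold change -0.75, limma, adjusted p = 1.75e-06). All genes of this and the next lists are read against the 30.9% higher and 35.3% lower among all genes tested.

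Genes known as targets of FOXO1 and KLF2 in quiescence, survival and homing rose for 8 of 10, none fell, and the median log2 fold change was 0.46. The list does not sort its genes by whether FOXO1 or KLF2 raises or lowers them. *Cd69* was among those that rose, from 93.5 ± 2.39 to 118 ± 2.94 FPKM (log2 fold change 0.33, limma, adjusted p = 2.16e-06). *Cdkn1b*, the cell cycle inhibitor p27, rose from 17.3 ± 1.01 to 33.1 ± 1.17 FPKM (log2 fold change 0.90, limma, adjusted p = 5.77e-08), and *Ccr7*, the homing chemokine receptor, by a log2 fold change of 0.77. The integrin genes *Itga4* (log2 fold change -0.093, limma, adjusted p = 0.0680) and *Itgb7* (0.072, limma, adjusted p = 0.0834) were those not called. *Tcf7*, *Id2* and *Ccr7* are among the genes the study chose to show from these libraries, so their directions are no independent evidence for the lists that hold them.

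Of 11 targets of TCF1 and LEF1 and surface markers of stem-like cells, 9 were tested, of which 5 rose and 1 fell, with a median log2 fold change of 0.50. *Xcl1*, a chemokine of progenitor exhausted cells, rose from 24.2 ± 3.07 to 52.5 ± 2.17 FPKM (log2 fold change 1.09, limma, adjusted p = 7.60e-07). *Il2rb*, the IL-2 receptor β chain, had a log2 fold change of 0.74 and *Cd27*, a costimulatory receptor, of 0.52. *Eomes*, a T-box factor, fell from 13.7 ± 0.406 to 10.5 ± 0.523 FPKM (log2 fold change -0.36, limma, adjusted p = 2.94e-05). The Wnt feedback gene *Axin2* lay below the filter, at 0.652 to 0.975 FPKM under DMSO and 0.885 to 1.33 FPKM under DADA, and was called higher in the fit without it (log2 fold change 0.28, limma, adjusted p = 0.0250). *Slamf6*, the gene of Ly108, and *Cxcr5* were not called (limma, adjusted p = 0.4455 and 0.185).

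The upstream control of FOXO1 and KLF2 was covered by 15 genes of PI3K, AKT and ubiquitin ligases, all of which passed the filter. AKT phosphorylates FOXO1 and moves it out of the nucleus, a step that RNA does not show. In this list, 8 genes rose and 1 fell, with a median log2 fold change of 0.19. *Pik3ip1*, an inhibitor of PI3K, rose from 5.27 ± 0.352 to 7.45 ± 0.519 FPKM (log2 fold change 0.43, limma, adjusted p = 9.76e-05), but so did *Pik3cd*, the catalytic subunit of PI3K in lymphocytes, from 109 ± 1.85 to 141 ± 2.25 FPKM (log2 fold change 0.37, limma, adjusted p = 1.94e-07). *Mdm2*, a ubiquitin ligase, had a log2 fold change of 0.32, and *Ywhae*, which encodes a 14-3-3 protein, fell slightly, by 0.10 on the log2 scale.

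The 23 partners and corepressors went both ways, with 11 higher and 6 lower among the 22 tested and a median log2 fold change of 0.10. *Maff*, one of the small MAF genes whose products pair with BACH2, rose from 1.47 ± 0.162 to 4.74 ± 0.331 FPKM (log2 fold change 1.21, limma, adjusted p = 1.18e-07). *Tle2*, a Groucho corepressor gene, reached 1 FPKM in the DADA libraries alone (log2 fold change 0.77). *Ctnnb1*, which encodes β-catenin, rose from 64.4 ± 1.39 to 74.2 ± 1.45 FPKM (log2 fold change 0.20, limma, adjusted p = 4.75e-05). *Cbfb*, the partner of the RUNX factors, fell by 0.27 and *Tle5*, of the Groucho family, by 0.19 on the log2 scale. Of the 22 paralogs of the factors, 14 were tested, of which 7 rose and 2 fell. Beside *Id2* and *Foxo3*, *Klf6* rose, from 50.8 ± 1.26 to 76.2 ± 1.32 FPKM (log2 fold change 0.58, limma, adjusted p = 2.51e-08), and *Klf4*, a factor of quiescence, fell from 3.68 ± 0.392 to 3.04 ± 0.135 FPKM (log2 fold change -0.21, limma, adjusted p = 0.0175).

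**Figure D5:**
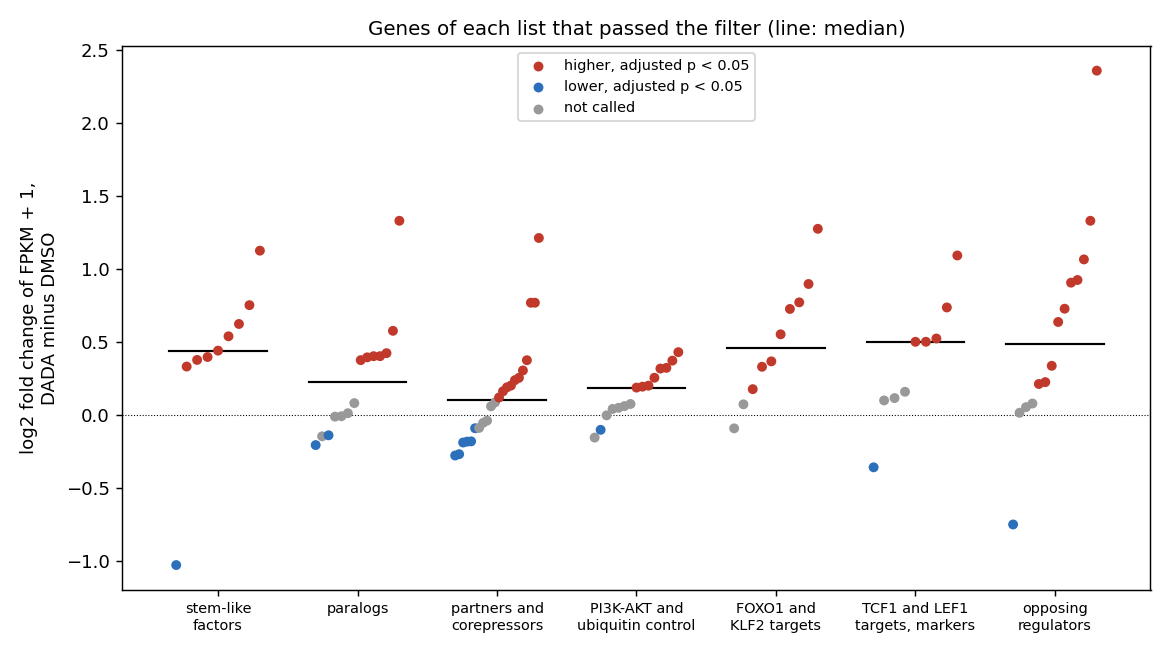
Log2 fold change of FPKM + 1, DADA minus DMSO (y axis), of the genes of each list that passed the filter, red when called higher, blue when called lower and grey when not called, with the median as a line. The median is 0.49 for the opposing regulators and 0.44 for the stem-like factors.

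By the root mean square distance of the centred log2(FPKM + 1) profile over the 8 libraries, the genes closest to *Tcf7* among the 8190 with a mean of at least 5 FPKM were *Il2rb* (0.0284), *Rab27a* (0.0314), *Ccr7* (0.0329), *Ccdc134* (0.03365) and *Ly6c2* (0.0339). Their profiles share the difference between the groups with *Tcf7*, and their log2 fold changes lay between 0.74 and 0.77.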

How the data were processed

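Bulk RNA-seq was analysed for 8 libraries, 4 with DMSO and 4 with DADA, grouped by their titles. The deposited table gives FPKM, computed by the authors from paired reads of 150 bp, for each gene in each library. Per the labels, the submitters' processing notes list HISAT2 2.0.5 and StringTie 1.3.3 and the builds GRCm39 and GRCh38, with no role for either, so no gene coordinates are taken from the table. Promoter windows are from RefSeq on GRCm38.p6 and exons from GENCODE M21 on the same assembly. The labels call the libraries biological replicates, and whether each came from its own mouse is not stated. The p-values therefore set the difference between the groups against the spread among these libraries, and may not extend to mice.

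Values were tested as log2(FPKM + 1) with limma 3.58.1 in R 4.3.3 (lmFit, eBayes with a mean-variance trend, Benjamini-Hochberg over all genes tested) for genes with at least 1 FPKM in at least 4 of the 8 libraries. A call is an adjusted p under 0.05. A gene below this filter was fitted among the 16167 genes above 0 in at least 1 library. On this scale, changes of low genes are understated. Single values, log ratios and family shares were tested with two-sided exact permutation tests over 70 assignments. Read counts were not used here, and mapped fragments per library were inferred from how low FPKM values are spaced in genes with 1 transcript in GENCODE M21. Each depth was the one, of those searched, that put the largest share of these values within 0.1 of a whole fragment. That share was 40.5% to 47.7%, where chance gives 20% at a depth fixed in advance. Its median over the depths searched was 15.1% to 17.7%. As a maximum, the share is no independent test of the depth, and no count test was run. Fragments per gene use its longest transcript. The fit was also run on simulated data, the outcome of which is not reported here, and no statement above rests on it. The 415 assembled transcripts carry no gene name, and any that belong to the factors are not counted with them.

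The factors, lists, ratios and motifs were chosen with earlier results of these data known. Named are the 10 factors, the second gene of each ratio, up to 3 called genes per direction and list, taken by size of change, and the 5 nearest to *Tcf7*. Further genes (*Foxo4*, *Foxp4*, *Bach1*, *Mybl1*, *Bcl6b*, *Tcf3*, *Itga4*, *Itgb7*, *Cd69*, *Zeb2*, *Hic1*, *Cd38*, *Axin2*, *Slamf6*, *Cxcr5*, *Ctnnb1*, *Cd79b*, *Ebf1* and the low paralogs) were named after their values were seen. Alternatives were a pseudocount of 0.1, no filter, a mean of at least 5 FPKM, TPM, median-ratio and quantile scaling, no trend, the replicate number as a block, and each library left out in turn. Some genes that these rules would name are not reported here, and they stay in the counts, medians and adjustments.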

Additional observations from a re-analysis of the deposited data

Results flagged for a closer look

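A single library stood apart in 4 of the 110 groups checked, each of 4 libraries, where its gap to the nearest value as a ratio to the whole range exceeded Dixon's 95% critical value. Chance gives this in about 1 of 20 groups, and the groups are not independent. The log2 ratio of *Id3* to *Id2* was -1.58 in DMSO 4 and -1.43 to -1.42 in the other DMSO libraries (ratio 0.903). *Tle2* measured 0.670 FPKM in DMSO 4, where the other DMSO libraries had 0.3885 to 0.421 FPKM (ratio 0.885), and 1.835 FPKM in DADA 4, where the other DADA libraries had 1.35 to 1.43 FPKM (ratio 0.837). *Ly6c2* measured 82.8 FPKM in DMSO 1 and 78.5 to 79.0 FPKM in the others (ratio 0.879). Among the 10 factors themselves, no library was apart by this measure, DADA 3 for *Foxp1* included.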

How the results depend on the processing

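Of 157 recomputed log2 fold changes of the 10 factors, 156 kept their direction and their side of the threshold. The exception was *Bcl6*, which was not called and turned to -0.082 under quantile normalization (limma, adjusted p = 0.1185). Leaving out libraries in turn, 8 factors were called higher and 1 lower each time, and the log2 fold changes ranged from 0.74 to 0.76 for *Tcf7*, 0.33 to 0.45 for *Lef1*, 0.32 to 0.50 for *Foxp1*, 1.05 to 1.19 for *Klf2*, 0.037 to 0.081 for *Bcl6* (never called) and -1.07 to -0.97 for *Id3*. With a mean of at least 5 FPKM, where *Klf2* was not tested, 1 paralog was called lower, 7 partners higher and 0 opposing regulators lower. Quantile normalization gave 2 lower genes in the PI3K, AKT and ubiquitin list and 1 among the FOXO1 and KLF2 targets, and the counts without a library were 1 to 2 (2 without DMSO 1) and 0 to 1 (1 without DADA 3). The filter tests fewer genes, and the cause of the other shifts was not tested. The deviations of DMSO and DADA libraries with the same replicate number correlated between -0.120 and 0.0953. Those with different numbers correlated between -0.267 and 0.134. Such values cannot show whether the libraries were paired, since a weak pairing could leave them as low. With the replicate block, the counts of factors called stayed at 8 higher and 1 lower, and 3251 of all genes were called higher and 3744 lower. With 3 against 4 libraries the smallest exact p is 0.0571, so ratios and shares were not retested there. The balance of all genes called turned under TPM scaling, to 3602 higher and 3379 lower, and widened under quantile normalization, to 3005 higher and 4116 lower. The depth limits *Klf2* and *Bcl6*, whose values rest on 18.4 to 127 and 24.2 to 38.9 estimated fragments, and the median of all genes moved by less than 0.1 under any scaling.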
